A study of Mus musculus with 15 samples.

Results

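The transcripts of 42 lysosome and autophagy genes were followed through the withdrawal and return of GDNF (glial cell line-derived neurotrophic factor) in cultures enriched for spermatogonial stem cells of the mouse, from which the male germ line renews itself. The genes were taken from a fixed list of names, chosen with earlier results of these data known. Of the 42, 40 had a probe set that carried their symbol alone, and all 40 passed a filter on dim probe sets and stand among the 13083 genes tested. No probe set was named for Cd63, and those of Bnip3l carry a second symbol, so neither gene was analysed here. Where a gene had several probe sets, the one with the highest mean over the 15 arrays was used.

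The lysosome is an acid compartment in which proteases and glycan and lipid hydrolases break down material that arrives by endocytosis or by autophagy. In autophagy a membrane closes around part of the cytoplasm, under control of the ULK kinases, the Beclin complex and a conjugation system that attaches ATG8 proteins such as LC3 to lipid, and the resulting vesicle fuses with the lysosome. The transcription factor TFEB and its relatives bind an element called CLEAR, with CACGTG at its core, before many of these genes, and the mTORC1 kinase, recruited to lysosomes by Rag GTPases, keeps TFEB in the cytoplasm. In the mouse testis autophagy is known from the forming acrosome of spermatids, which needs Atg7.

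The cultures were established from C57BL/6 males aged 6 days. In the withdrawal group they went 18 h without GDNF and without soluble GFRalpha1, its co-receptor. In the replacement groups both factors then came back for 2, 4 or 8 h. The maintained group received GDNF, GFRalpha1 and bFGF throughout in serum-free medium. Each of the 5 groups had 3 arrays. The labels do not say that these came from separate cultures, so the spread between them may be technical only, and the number of arrays limits the precision. Withdrawal was not continued past 18 h in any group, and no group was handled alike without receiving the factors, so the return of the factors cannot be told apart from handling or added time. In such bulk RNA, fewer cells of a type and less RNA per cell cannot be told apart either.

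Values are the authors' MAS5 signal in arbitrary units. The trimmed mean of the deposited values, computed here, was 150 on each array, and levels are not compared between probe sets. Differences are log2 differences of signal plus 16, tested with limma, and p-values are adjusted over the 13083 genes. A gene is called at an adjusted p under 0.05. Germ line markers were present on every array (summed signal 13804 to 16858 over 10 genes), although Cdh1, which encodes E-cadherin, stayed near the filter at 19.2 to 39.4. The third withdrawal array stood apart. The ratio of 3' to 5' signal of the beta-actin control probe sets, a sign of RNA quality, was 2.77 there, against 1.10 to 1.75 on the other 14 arrays. It was the highest of the 15 arrays for 12 of the 40 genes (30%, against 17.6% of all genes tested) and the lowest for 5 (12.5%, against 15.4%). The second maintained array was the lowest for 12 of the 40 (30%, against 11%). The part of these arrays in the results was not tested beyond leaving each out, and values without them are given below where they change.

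The promoter windows of the genes carried the letters of the CLEAR element often. RefSeq windows on GRCm38.p6, from 250 bases before to 50 bases after the annotated start, were matched by symbol for 33 of the 40 genes. CACGTG was found in 14 of the 33 (42.4%), against 11.5% of the 10570 windows of genes tested and 8.09% of all 27025 windows. The longer GTCACGTG, read on either strand and always containing CACGTG, was found in 9 (27.3%), against 4.56% of tested genes and 2.55% of all. In Cln3 it was found on both strands, as overlapping matches. CLEAR is known from genes of this kind, so a list of their names is not independent of it, and these shares are description only. The 9 stretches are shown to give the place of each match. They are given 5' to 3' on the strand of the gene, with the match to GTCACGTG in capitals, and lie at chr8:13159121-13159152 (Lamp1, plus strand), chr8:3500434-3500465 (Mcoln1, plus), chr7:126583340-126583371 (Cln3, minus), chr2:164833747-164833778 (Ctsa, plus), chr7:142388053-142388077 (Ctsd, minus), chrX:134601182-134601213 (Gla, minus), chr9:114401016-114401047 (Glb1, plus), chr8:105566050-105566081 (Atp6v0d1, minus) and chr6:114670950-114670981 (Atg7, plus).
Lamp1: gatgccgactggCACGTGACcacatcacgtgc
Mcoln1: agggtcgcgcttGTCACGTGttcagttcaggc
Cln3: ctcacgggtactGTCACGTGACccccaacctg
Ctsa: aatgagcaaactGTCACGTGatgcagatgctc
Ctsd: tccccCACGTGACctgtatccagtc
Gla: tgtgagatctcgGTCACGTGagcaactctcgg
Glb1: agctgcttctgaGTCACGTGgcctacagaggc
Atp6v0d1: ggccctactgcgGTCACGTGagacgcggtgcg
Atg7: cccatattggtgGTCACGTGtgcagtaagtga
The 14 genes whose window held CACGTG had a median log2 difference of 0.07 for withdrawal minus maintained cultures, and the 19 genes without it a median of 0.39. At 8 h of replacement minus maintained cultures these medians were 0.07 and 0.39 as well. They rest on all arrays and were not recomputed without the third withdrawal array or the second maintained array. The difference between the genes with and without CACGTG was not tested. A match is a run of letters and was not shown to be a bound site.

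After 18 h without the factors 2 of the 40 were called (5.0%), against 8.04% of all genes tested (1052 of 13083). Pink1, a kinase that marks damaged mitochondria for removal by autophagy, rose, and Uvrag, a partner of Beclin in vesicle formation and endosome fusion, fell. At an unadjusted p under 0.05 the count was 15 of 40 (37.5%), 11 higher and 4 lower, against 23.8% of all genes. The withdrawal and maintained arrays did not overlap for 6 of the 40 (15%), against 26.8% of all genes. The median log2 difference of the 40 was 0.15, against 0.06 for all genes, and it was 0.05, against 0.06, without the third withdrawal array and 0.06, against 0.06, without the second maintained array. With any 1 array left out it ran from 0.05 to 0.20. Single differences ran from -0.46 to 0.73, and for 37 of 40 the whole 95% interval lay within a 2-fold change either way, as it did for 84.7% of all genes.

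**Figure D1:**
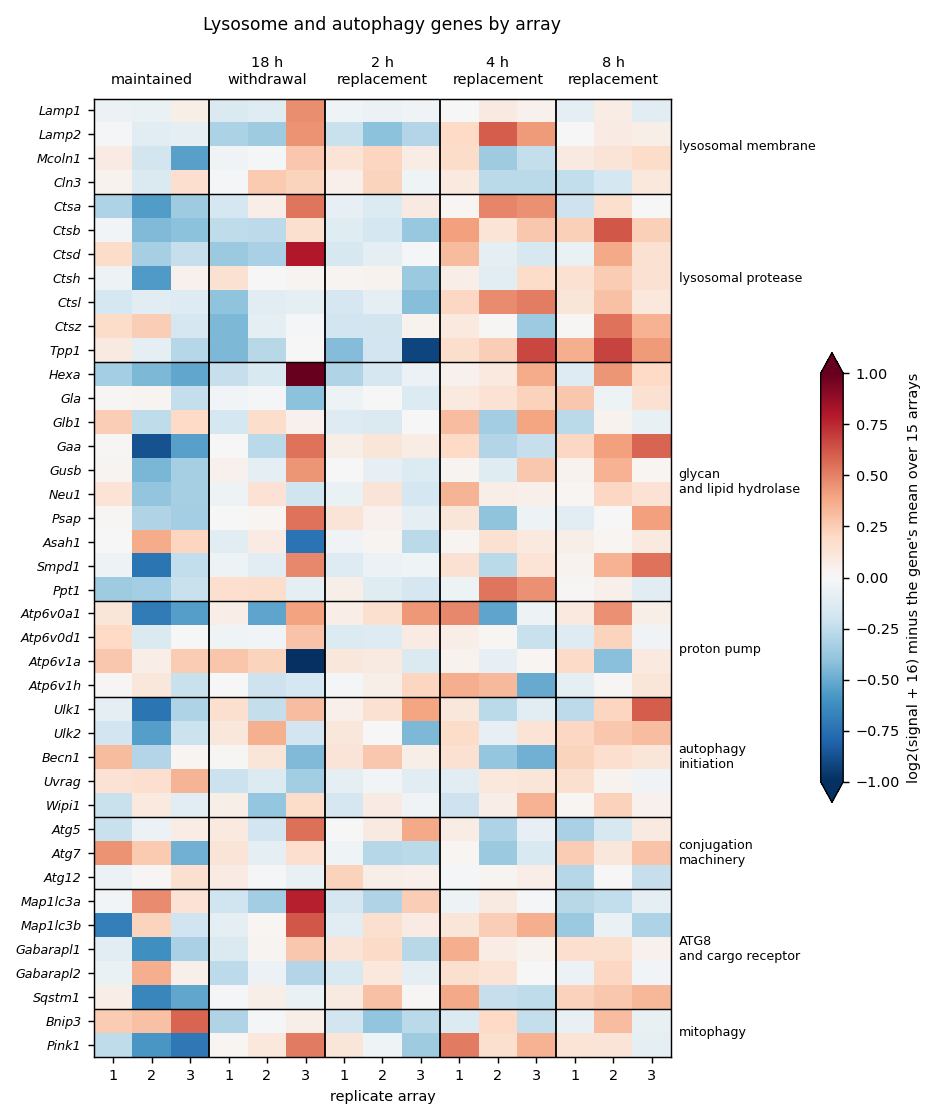
Deviation of each of the 40 genes from its own mean over the 15 arrays, on the scale of log2(signal + 16), with genes grouped by role and 1 column per array. On the third withdrawal array Hexa lies above and Atp6v1a below the range of the colour scale, and the protease rows are mostly red (above their mean) at 4 and 8 h of replacement.

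Uvrag stood at 335, 353 and 304 in withdrawal cultures, against 434, 441 and 499 in maintained cultures. Every withdrawal array was below every maintained array. The log2 difference was -0.45 (SE 0.12, 95% interval -0.70 to -0.20; limma adjusted p = 0.0275), or 1.37-fold lower. After the factors came back it stood at 364, 384 and 359 at 2 h, 362, 421 and 426 at 4 h and 438, 400.0 and 381 at 8 h. These 9 values all lay above the 3 withdrawal values, but the differences from withdrawal (0.15, 0.27 and 0.29) were not called (adjusted p = 0.764, 0.217 and 0.253). One probe set measured the gene.

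Pink1 stood at 104, 111 and 154 in withdrawal cultures, against 83.3, 63.2 and 56.1 in maintained cultures. The groups did not overlap, and the log2 difference was 0.73 (SE 0.19, 95% interval 0.34 to 1.12; adjusted p = 0.0228), or 1.66-fold higher. It stood at 113, 99.2 and 76.5 at 2 h of replacement, 154, 116 and 134 at 4 h and 114, 114 and 95 at 8 h. All but the third array at 2 h lay above every maintained array, and no replacement time was called against withdrawal. At 8 h the log2 difference from maintained cultures was still 0.58, though not called (adjusted p = 0.146). A dimmer probe set of Pink1 gave a difference of 0.27 on withdrawal and was not called (adjusted p over all probe sets = 0.501).

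Both calls rested on few arrays. That of Uvrag was lost without the second or the third maintained array (adjusted p = 0.0578 and 0.117) and without the first or the third withdrawal array (0.0554 and 0.0710). That of Pink1 was lost without the second or the third maintained array (0.0768 and 0.0983), without the third withdrawal array (0.0922) and when its probe sets were averaged (0.0578). Over the 40 genes, 0 were called without the second or the third maintained array or the third withdrawal array (4.06%, 3.95% and 5.04% of all genes). Without the first maintained array 4 were called (Gaa, Uvrag, Sqstm1 and Pink1), against 7.75% of all genes. Fitted on the withdrawal and maintained arrays alone, 0 of 40 were called (2.39% of all genes).

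The promoter windows of both genes are shown next. CACGTG is absent from them, as it is from 19 of the 33 windows of the list. They lie at chr7:99141095-99141394 (Uvrag, minus strand) and chr4:138326247-138326546 (Pink1, minus strand) and are written 5' to 3' on the strand of the gene.
Uvrag: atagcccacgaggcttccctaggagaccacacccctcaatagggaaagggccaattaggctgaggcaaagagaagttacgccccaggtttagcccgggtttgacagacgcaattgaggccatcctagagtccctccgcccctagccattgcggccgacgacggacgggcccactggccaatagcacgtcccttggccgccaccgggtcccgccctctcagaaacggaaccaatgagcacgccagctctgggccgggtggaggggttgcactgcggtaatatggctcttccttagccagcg
Pink1: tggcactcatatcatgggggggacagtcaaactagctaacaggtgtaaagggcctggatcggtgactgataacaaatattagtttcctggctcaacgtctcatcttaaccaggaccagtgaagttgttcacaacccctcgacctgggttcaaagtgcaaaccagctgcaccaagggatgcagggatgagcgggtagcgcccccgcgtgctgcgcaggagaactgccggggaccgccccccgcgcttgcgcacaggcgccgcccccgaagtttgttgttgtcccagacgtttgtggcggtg

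Among the other role groups, the genes with the largest difference on withdrawal did not pass the test. Of the lysosomal membrane genes, Mcoln1, which encodes the calcium release channel of lysosomes, stood at 266, 269 and 332 in withdrawal cultures, against 289.7, 237 and 182 in maintained cultures. These ranges overlap (log2 difference 0.29, SE 0.17, adjusted p = 0.310). It then stood at 300.4, 318 and 287 at 2 h, 311, 209.7 and 229 at 4 h and 291, 298 and 311 at 8 h of replacement. The signals of Lamp1 and Lamp2, the abundant glycoproteins of the lysosomal membrane, differed by 0.09 and 0.00, and that of Cln3, a membrane protein mutated in a childhood neurodegenerative disease, by 0.14. Lamp1 was at 4359, 4412 and 6639 in withdrawal cultures, against 4629, 4605 and 5006 in maintained cultures, with its highest value on the withdrawal array that stood apart.

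Ctsa, a carboxypeptidase that also protects the sialidase Neu1 and the galactosidase Glb1, led the proteases. It stood at 466, 555 and 771 in withdrawal cultures, against 424, 354 and 408 in maintained cultures. The groups did not overlap (log2 difference 0.55, SE 0.17, adjusted p = 0.0624). Without the third withdrawal array the difference was 0.36 (adjusted p = 0.207), and without the first it was called (0.71, adjusted p = 0.0292). Its replacement values were 498, 480.0 and 563 at 2 h, 537, 746 and 730.4 at 4 h and 455, 592 and 529 at 8 h, all above the maintained values. The aspartic protease gene Ctsd, at 1625, 1683 and 3672 in withdrawal cultures, against 2399.6, 1669 and 1790.2 in maintained cultures, had its highest value on the same array (log2 difference 0.16, adjusted p = 0.743). Over the 7 proteases the median difference was 0.16, with 4 positive, and -0.12, with 3 positive, without that array.

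Among the 10 glycan and lipid hydrolases, 7 differences were positive and the median was 0.39. Hexa, the alpha subunit of beta-hexosaminidase, had the largest. It stood at 553, 583 and 1505 in withdrawal cultures, against 511, 472 and 447 in maintained cultures. The groups did not overlap, but the third withdrawal array was more than double the other 2, and the difference of 0.71 (SE 0.26, adjusted p = 0.111) was 0.25 without it (adjusted p = 0.373). Its replacement values were 524, 576 and 625 at 2 h, 671, 697 and 845 at 4 h and 594, 886 and 747 at 8 h, again all above the maintained values. Positive differences that were not called were also found for Gaa, the enzyme that degrades glycogen (0.56), Smpd1, the acid sphingomyelinase (0.45), Psap, the precursor of the saposins (0.40), Ppt1, a thioesterase that removes palmitate from proteins (0.39), and the glucuronidase gene Gusb (0.39). Neu1 differed by 0.16, and the galactosidase genes Gla and Glb1 by -0.08 and -0.05. Asah1, the acid ceramidase, gave -0.45 (adjusted p = 0.115), from 889, 1019 and 569 in withdrawal cultures, against 960.5, 1249.8 and 1114 in maintained cultures. Leaving out the third withdrawal array gave the 10 hydrolases a median of 0.24, with 8 positive.

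The 4 genes of the proton pump, the ATPase that acidifies the lysosome, did not move one way. Atp6v0a1, a subunit of its membrane sector, was at 202, 128 and 259 in withdrawal cultures, against 209.6, 112 and 126 in maintained cultures (log2 difference 0.36, SE 0.27, adjusted p = 0.441). Those ranges overlap, as did its later values of 202, 216 and 265 at 2 h, 274, 128 and 185 at 4 h and 206, 269.5 and 201 at 8 h. Atp6v1a, the catalytic subunit, was at 786, 755 and 315 in withdrawal cultures, against 780.4, 674 and 771 in maintained cultures. Only the third withdrawal array was low there (log2 difference -0.36, adjusted p = 0.405), and a second probe set of Atp6v1a was called lower (-0.71, adjusted p over all probe sets = 0.0219). Atp6v0d1 and Atp6v1h differed by 0.06 and -0.09.

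Of the genes that start autophagy, Ulk1, the kinase at the head of the pathway, was at 279, 207 and 312 in withdrawal cultures, against 232, 143 and 197 in maintained cultures. The ranges overlap (log2 difference 0.45, SE 0.21, adjusted p = 0.209). It then stood at 258, 277 and 332 at 2 h, 269, 203 and 228 at 4 h and 204, 291 and 386 at 8 h of replacement. Its paralog Ulk2 differed by 0.41 (adjusted p = 0.158), Becn1, which encodes Beclin, by -0.12, and Wipi1, a protein that binds the lipid of the growing membrane, by 0.03. In the conjugation system, Atg5 was at 305, 248 and 424 in withdrawal cultures, against 241, 272 and 299 in maintained cultures (log2 difference 0.22, SE 0.18, adjusted p = 0.489). These too overlap, and Atg5 stood at 284, 303 and 375 at 2 h, 301, 227 and 267 at 4 h and 224, 253 and 304 at 8 h. Atg7, the activating enzyme of the system, and Atg12, which is joined to Atg5, differed by -0.01 and -0.04.

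Map1lc3b, which encodes an LC3 protein of the autophagic membrane, was at 2021, 2188 and 3322 in withdrawal cultures, against 1342, 2518 and 1877 in maintained cultures. The ranges overlap (log2 difference 0.40, SE 0.21, adjusted p = 0.249), and the difference was 0.18 without the third withdrawal array. It was called after quantile normalization (0.54, adjusted p = 0.0429) and as the mean of its probe sets (0.49, adjusted p = 0.0362). Its replacement values were 2005, 2415 and 2288 at 2 h, 2346, 2559 and 2781 at 4 h and 1669.9, 2062 and 1741 at 8 h. The ATG8 relative Gabarapl1 and the cargo receptor Sqstm1 differed by 0.40 and 0.36, while Gabarapl2 and Map1lc3a differed by -0.32 and -0.12, none of them called. Bnip3, a mitochondrial protein that recruits LC3, was at 492, 604 and 636 in withdrawal cultures, against 729.5, 752 and 920.1 in maintained cultures, without overlap but short of a call (-0.46, adjusted p = 0.0755).

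**Figure D2:**
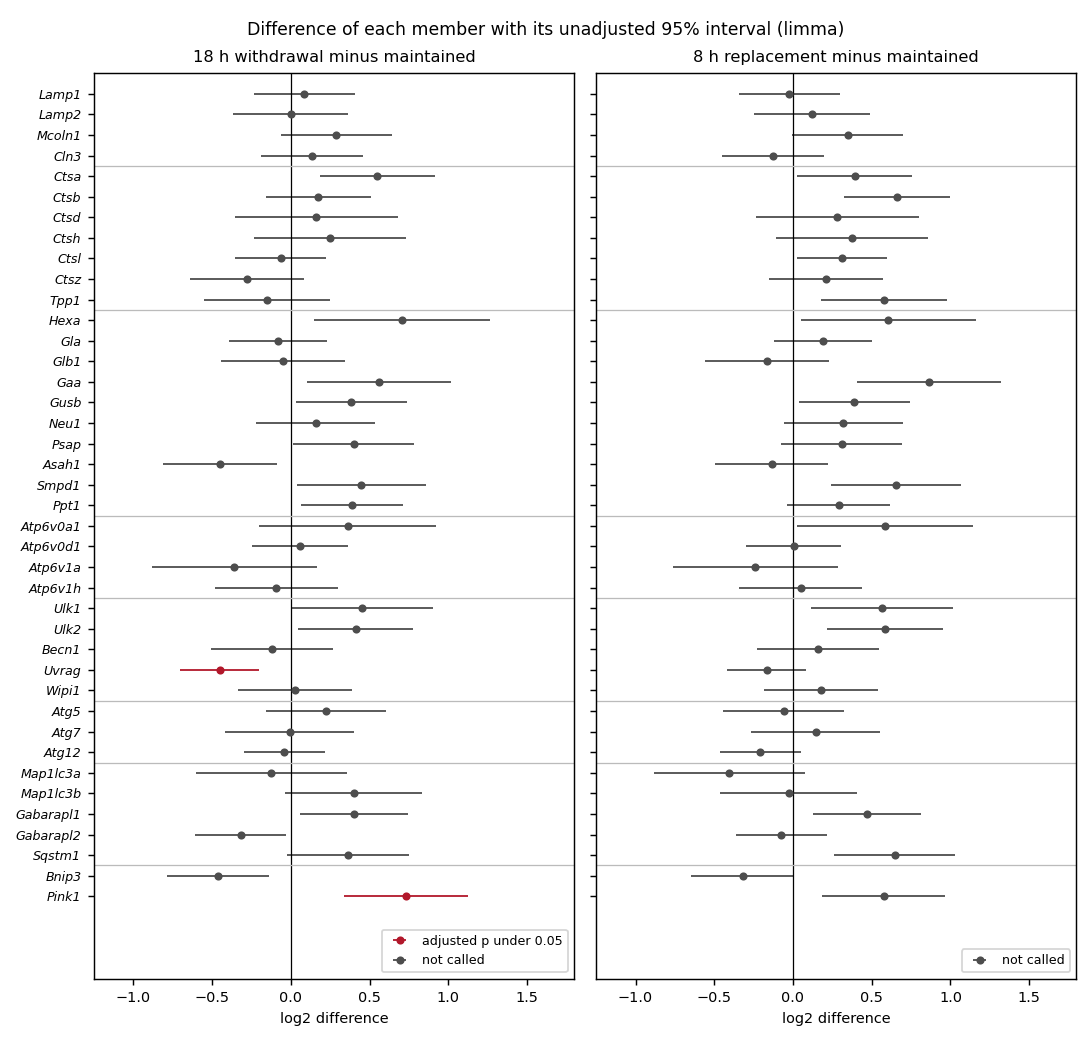
Log2 difference of each of the 40 genes (point) with its unadjusted 95% interval (line), for 18 h of withdrawal minus maintained cultures on the left and 8 h of replacement minus maintained cultures on the right, in limma. Called genes are in red: Uvrag at -0.45 and Pink1 at 0.73 on the left, and none on the right, where 28 of the 40 points lie above 0.

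The return of the factors for 2 h was followed by no call in the list. None of the 40 genes was called against withdrawal with limma, and none had an unadjusted p under 0.05, against 0.115% of all genes called (15 of 13083) and 8.06% at the unadjusted level. The smallest adjusted p was 0.679. The median log2 difference was -0.09, against -0.04 for all genes, and it ran from -0.14 to 0.03 with any 1 array left out, the highest without the third withdrawal array. For 1 of the 40 (2.50%) the groups did not overlap, against 14.6% of all genes. That gene was Uvrag, given above. For 39 of 40 the 95% interval lay within a 2-fold change.

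By 4 h the transcripts of the cysteine protease Ctsl rose. It was the only one of the 40 called against withdrawal (2.50%), against 2.64% of all genes (346 of 13083). Ctsl stood at 2627, 3169.6 and 3257 at 4 h, against 1715, 2105 and 2139.9 in withdrawal cultures. All 3 values at 4 h lay above every withdrawal value, with a log2 difference of 0.60 (SE 0.14, 95% interval 0.31 to 0.89; adjusted p = 0.0314), or 1.52-fold higher. It had stood at 2018, 2106 and 2084 in maintained cultures and 2023, 2121 and 1688 at 2 h, and was at 2476, 2793 and 2450.0 at 8 h. The difference of 8 h from withdrawal, 0.38, was not called (adjusted p = 0.173). The call at 4 h was lost without the first or second withdrawal array (adjusted p = 0.103 and 0.0548), without the second or the third array at 4 h (0.129 and 0.108), after quantile normalization (0.0642) and in a fit on those 2 groups alone (0.208).

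Around Ctsl, 6 of the 40 genes had an unadjusted p under 0.05 at 4 h (15%, all higher), against 19.6% of all genes. The groups did not overlap for 5 (12.5%), against 21.4%. Lamp2 was at 2038, 2701 and 2394 at 4 h, against 1418, 1385 and 2421 in withdrawal cultures (log2 difference 0.49, adjusted p = 0.137). The third withdrawal array overlaps the 4 h values, and without it 2 of the 40 were called, Lamp2 and Ctsl, against 2.76% of all genes. A second probe set of Lamp2 was called on all arrays (0.62, adjusted p over all probe sets = 0.0379). The median difference of the 40 was 0.03, against -0.05 for all genes. It was 0.13 without the third withdrawal array, -0.004 with the probe sets of a gene averaged and 0.12, against 0.04 for all genes, with arrays shifted to one median.

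At 8 h against withdrawal, 0 of the 40 were called with limma, against 2.39% of all genes (313 of 13083), and 5 had an unadjusted p under 0.05 (12.5%, against 15.3%). Nearest to a call was Tpp1, a serine protease that removes tripeptides from proteins. It stood at 376, 471 and 393 at 8 h, against 207, 235 and 288 in withdrawal cultures. The groups did not overlap (log2 difference 0.73, SE 0.19, adjusted p = 0.0512). It was called with a constant of 64, with the dimmest 60% of probe sets left out and after quantile normalization. It was also called in fits without the second or the third array at 2 h or without the first or the third at 4 h. In each of these 1 gene of 40 was called, against 1.99% to 3.4% of all genes. Without the third withdrawal array 2 were called, Tpp1 and the cysteine protease Ctsb, against 2.7% of all genes. Of 5 probe sets of Ctsb, 1 dim one was called higher at 8 h with all arrays kept (1.48, adjusted p over all probe sets = 0.0407), and the brightest, used here, gave 0.49 and was not called. The median of the 40 was 0.13, against 0.01 for all genes, but 0.04 without the second withdrawal array, and the groups did not overlap for 8 (20%, against 21.5%).

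Between the replacement times, Tpp1 rose. It stood at 376, 471 and 393 at 8 h, against 210.0, 252 and 145 at 2 h, and every value at 8 h lay above every value at 2 h. At 4 h it was at 329, 345 and 469.6, and in maintained cultures at 309, 271 and 235. The log2 difference of 8 h minus 2 h was 1.00 (SE 0.19, 95% interval 0.60 to 1.40; adjusted p = 0.0116), or 2.00-fold higher. It was the only call among the 40 in that comparison (2.50%), against 1.85% of all genes (242 of 13083). The third array at 2 h was the lowest of the 15 for Tpp1, and the call was lost without it (0.80, adjusted p = 0.0644), without the second array at 8 h (adjusted p = 0.0729) and when the probe sets of the gene were averaged (0.0653). A dimmer probe set gave 0.48 and was not called. Without the third withdrawal array, which enters through the shared spread only, Ctsb was called as well (3.29% of all genes called). For 12 of the 40 (30%) the groups did not overlap, against 25.6% of all genes. Comparisons that share arrays, as those of 8 h do, are not independent of each other.

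The promoter windows of Ctsl and Tpp1, the genes that rose after the factors returned, are shown to set beside the others. That of Ctsl, chr13:64370471-64370770 on the minus strand, holds CACGTG, in capitals, and is the only window among the 4 called genes to do so. That of Tpp1 is chr7:105752186-105752485, minus strand, and both are written 5' to 3' on the strand of the gene.
Ctsl: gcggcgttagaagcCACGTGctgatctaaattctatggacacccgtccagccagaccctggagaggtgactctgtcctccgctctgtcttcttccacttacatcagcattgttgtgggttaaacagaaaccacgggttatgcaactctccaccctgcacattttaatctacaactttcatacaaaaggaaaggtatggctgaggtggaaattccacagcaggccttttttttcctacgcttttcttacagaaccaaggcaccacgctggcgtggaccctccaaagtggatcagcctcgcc
Tpp1: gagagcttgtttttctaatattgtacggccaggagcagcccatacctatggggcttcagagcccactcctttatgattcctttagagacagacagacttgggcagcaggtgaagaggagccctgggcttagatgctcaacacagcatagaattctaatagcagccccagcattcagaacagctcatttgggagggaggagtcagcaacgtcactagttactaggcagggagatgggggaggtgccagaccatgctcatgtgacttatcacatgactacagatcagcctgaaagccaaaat

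**Figure D3:**
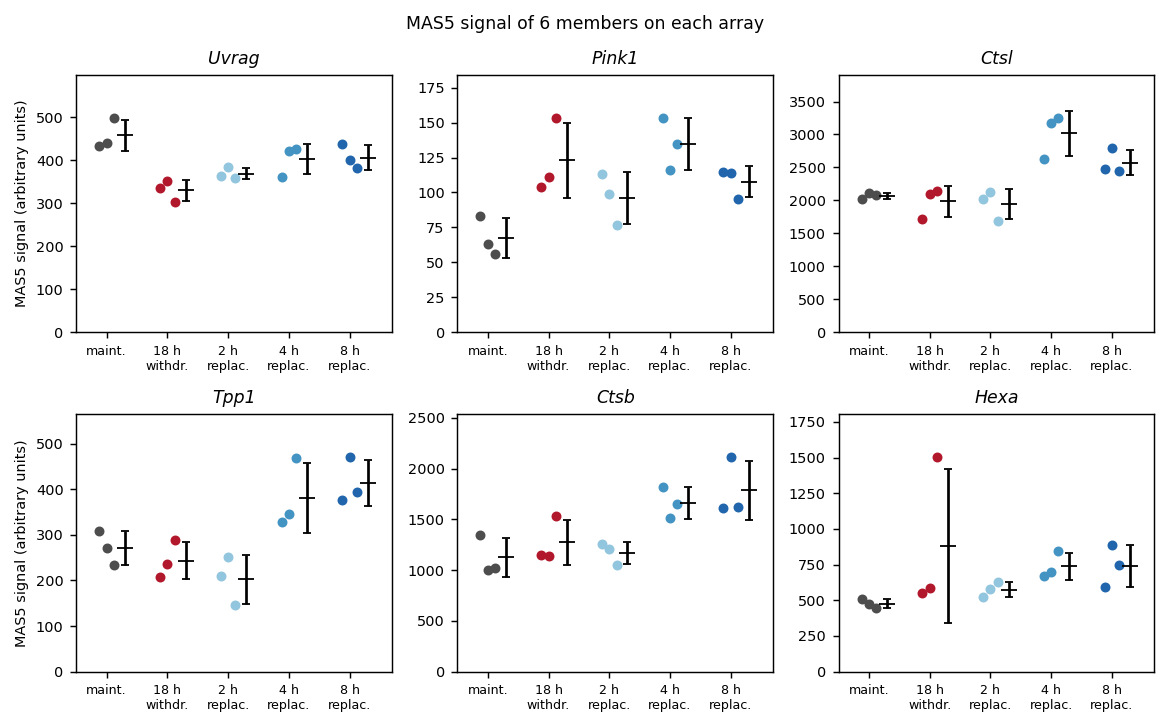
MAS5 signal of 6 genes on each array (points, in replicate order) with the mean and SD of the 3 arrays beside them (line and bars), from maintained cultures through 18 h of withdrawal to 2, 4 and 8 h of replacement. By mean, Uvrag is lowest in withdrawal cultures, Pink1 lowest in maintained cultures, Ctsl highest at 4 h and Tpp1 and Ctsb highest at 8 h, while the mean of Hexa in withdrawal cultures rests on 1 array at 1505.

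Cultures given the factors back for 8 h were also set against maintained cultures, to see whether the levels had returned. None of the 40 genes was called with limma, against 0.482% of all genes (63 of 13083), but 14 had an unadjusted p under 0.05 (35.0%, all higher), against 17.0% of all genes. The groups did not overlap for 16 (40%), against 26.6% of all genes. The median log2 difference was 0.25, against 0.06 for all genes, and 28 of 40 were positive (70.0%, against 58.6%). When each array was shifted to one median signal the medians were 0.10, against -0.08 for all genes. Of the 40, 34 had an interval within a 2-fold change.

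The genes nearest to a call were the following. Ctsb stood at 1616, 2115 and 1622 at 8 h, against 1344, 1003 and 1024 in maintained cultures, without overlap (0.66, SE 0.16, adjusted p = 0.0644). Gaa had the largest difference (0.87, SE 0.22, adjusted p = 0.0727), at 491, 568 and 641 at 8 h, against 426, 225 and 286 in maintained cultures. Both encode enzymes of the lysosomal lumen. Sqstm1, which carries ubiquitin-tagged cargo to the autophagic membrane, was at 1405, 1448 and 1512 at 8 h, against 1253, 756 and 829.8 in maintained cultures (0.65, adjusted p = 0.103). Smpd1 was at 322, 405 and 464 at 8 h, against 302, 183 and 262 in maintained cultures (0.65, adjusted p = 0.119). Ulk2 was at 198, 208 and 213 at 8 h, against 146, 110.2 and 144 in maintained cultures (0.58, adjusted p = 0.118). These 5 genes were picked by their values in this comparison, and in each the lowest value at 8 h lay above the highest maintained value. Map1lc3a lay on the other side, at 1682, 1719.5 and 1903 at 8 h, against 2004, 2838 and 2257 in maintained cultures (-0.40, adjusted p = 0.369). Without the first maintained array 3 of the 40 were called (Ctsb, Gaa and Sqstm1), against 1.18% of all genes. Without the third withdrawal array 3 were called (Ctsb, Hexa and Gaa), against 2.11% of all genes. That array enters this comparison through the shared spread only.

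By role, all 7 proteases had a positive difference at 8 h minus maintained cultures (0.21 to 0.66, median 0.38), and they did so after quantile normalization and with arrays shifted to one median (median 0.23). All 7 were also positive at 8 h minus 2 h (median 0.41), of which 6 of 7 were with arrays shifted to one median. Ctsh, the dimmest of them at 16.2 to 40.8, lay near the filter. Of the 10 hydrolases 8 were positive at 8 h minus maintained cultures under all 3 scalings. Their median was 0.31, and it was 0.26 after quantile normalization and 0.17 with arrays shifted to one median. Of the 5 genes that start autophagy 4 were positive under all 3 scalings, with medians of 0.18, 0.23 and 0.03 in the same order. The 3 conjugation genes had a median of -0.06 and the 5 ATG8 and cargo receptor genes of -0.03. After quantile normalization these medians were -0.11 and 0.17, and with arrays shifted to one median they were -0.21 and -0.17. Of the 4 lysosomal membrane genes 2 were positive (median 0.05), and of the 4 proton pump genes 3 were (median 0.03). After quantile normalization 3 of 4 were positive in each (medians 0.19 and 0.05). With arrays shifted to one median 1 of 4 was (medians -0.10 and -0.12). Of the 7 proteases only Ctsl, at 4 h against withdrawal, and Tpp1, at 8 h against 2 h, were called in any of the 6 comparisons. Positive signs were shared unevenly by lysosomal genes outside the 40. Of 5 further proteases 3 were positive at 8 h minus maintained cultures (median 0.18) and 3 at 8 h minus 2 h (median 0.21). Of 21 further hydrolases 18 were positive at 8 h minus maintained cultures (median 0.28), and of 16 further membrane and sorting genes 15 were (median 0.22). Of 12 further proton pump subunits 6 were (median -0.02).

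Markers of other cells, and of the germ line, moved over the same hours. The summed signal of 10 fibroblast markers was 4882 to 7216 in maintained cultures, 5774 to 8902 in withdrawal cultures, 3674 to 6547 at 2 h, 9754 to 11822 at 4 h and 9534 to 12136 at 8 h. On the 6 arrays at 4 and 8 h this sum, the signal of Ctsl and that of Tpp1 were each above their values on the other 9 arrays. Of the 9 tested, Col3a1, Dcn and Postn were called higher at 4 h than in withdrawal cultures. At 8 h minus 2 h, where Tpp1 was called, all 9 were positive (median 0.91) and 4 were called (44.4%, against 1.85% of all genes), Col1a2, Col3a1, Dcn and Postn. Leydig and peritubular cell markers summed to 572 to 736 at 8 h, against 337 to 506 at 2 h and 390 to 495 in maintained cultures, and 1 of the 3 tested, Cyp11a1, was called higher in both comparisons. The summed signal of 8 mast cell markers (one of them, Kit, also used by differentiating germ cells) was 1466 to 1870 in maintained cultures, 1892 to 2551 in withdrawal cultures, 2231 to 3483 at 2 h, 3600 to 4219 at 4 h and 3276 to 5296 at 8 h. Of the 7 tested, Cpa3, Tpsb2, Cma1 and Mcpt4 were called higher at 8 h than in maintained cultures. Macrophage markers summed to 563 to 731 at 8 h, against 387 to 506 in maintained cultures. Of the 10 listed 6 were tested, and 0 of these were called. C1qa and Aif1 are part of the sums but were too dim to be tested (2.6 to 8.8 and 1.4 to 31.6). On withdrawal the germ line markers moved. Their summed signal was 13804 to 15399 in withdrawal cultures, against 15612 to 16858 in maintained cultures, without overlap, and 4 of the 10 were called (40%, against 8.04% of all genes), Id4 (-1.82), Etv5 (-1.57) and Gfra1 (-0.87) lower and Zbtb16 (0.77) higher. The median difference of the 10 was -0.09, with 3 positive and 7 negative. Whether the number of germ cells changed was not tested. Sertoli cell markers summed to 426 to 519 in withdrawal cultures, against 394 to 409 in maintained cultures, with 0 of 6 called by limma in any comparison, and the 2 endothelial markers tested were not called either. No marker of these lists was at 0 on any array. Lysosomal proteases are made by most cell types, and the part of these cells in the signals of the 40 genes was not tested.

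**Figure D4:**
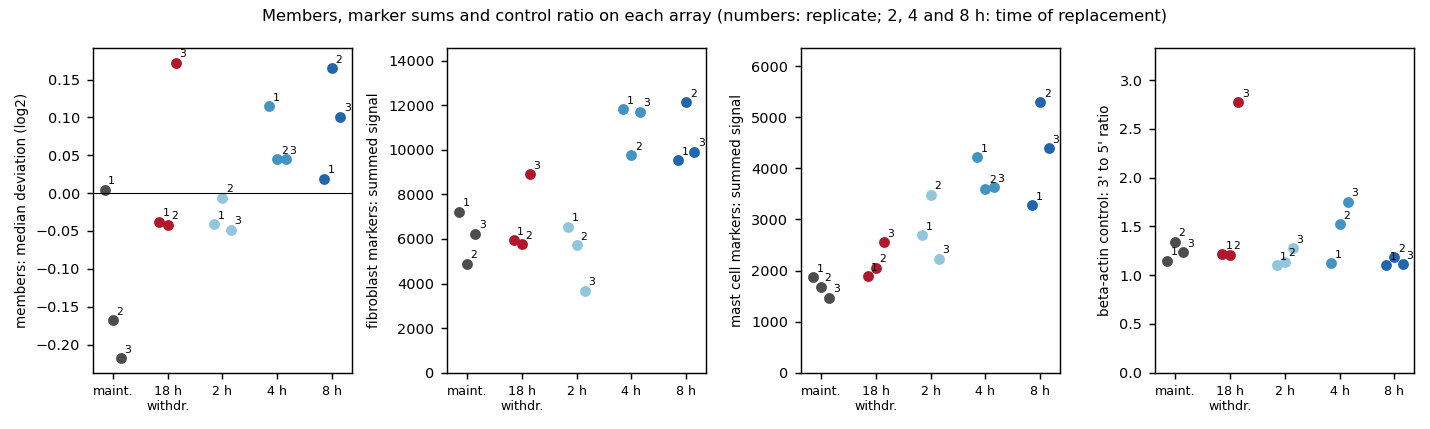
Each point is 1 array, numbered by replicate, from maintained cultures through 18 h of withdrawal to 2, 4 and 8 h of replacement. The panels give the median deviation of the 40 genes from their means (log2), the summed signal of fibroblast and of mast cell markers, and the 3' to 5' ratio of the beta-actin control, where the third withdrawal array stands at 2.77.

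Further genes of the pathway were taken from 5 lists that exclude the 40. Of 85 tested, 6 were called on withdrawal (7.06%), against 8.04% of all genes. Atp6v1b2, a pump subunit, rose and stood at 1116, 1092 and 983 in withdrawal cultures, against 744, 527 and 651 in maintained cultures (0.73, adjusted p = 0.00591). Its partner subunits Atp6v1d (-0.52, adjusted p = 0.0135) and Atp6v1f (-0.49, adjusted p = 0.0239) fell. The heparan sulfate hydrolase Naglu (0.68, adjusted p = 0.0218), the mannosidase Man2b1 (0.47, adjusted p = 0.0282) and Atg4b, a protease that trims ATG8 proteins (0.70, adjusted p = 0.0249), rose. Without the third withdrawal array 3 of the 85 were called (3.53%, against 5.04% of all genes), the pump subunits Atp6v1b2, Atp6v1d and Atp6v1f.

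On return of the factors, Ids, which degrades heparan and dermatan sulfate, was the only one of the 85 called at 4 h against withdrawal (0.64, adjusted p = 0.0385). That was 1.18%, against 2.64% of all genes. Ids stood at 326, 441 and 426 at 4 h, against 275, 273 and 201 in withdrawal cultures. Without the third withdrawal array the count was 6 (7.06%, against 2.76% of all genes), and Ids was not among them. At 8 h minus 2 h Ids (0.81, adjusted p = 0.0124) and Fundc1, a mitophagy receptor (0.65, adjusted p = 0.0336), were called higher (2.35%, against 1.85% of all genes). With that array left out, which enters here through the shared spread only, 4 were called (4.71%, against 3.29%). None of the 85 was called at 2 h or 8 h against withdrawal or at 8 h against maintained cultures with limma. Of all genes 0.115%, 2.39% and 0.482% were called in these comparisons. In the last of them 63 of the 85 differences were positive (74.1%, median 0.16), against 58.6% of all genes (median 0.06).

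Of 16 further regulators upstream, 3 were called on withdrawal (18.8%, against 8.04% of all genes). These 3 were called without the third withdrawal array too, against 5.04% of all genes. The list was chosen with earlier results of these data known, so its shares, here and below, are description only. Tfeb stood at 81.7, 37.1 and 133 in withdrawal cultures, against 446, 358 and 394 in maintained cultures (-2.17, adjusted p = 0.00302). Rragd, a Rag GTPase, stood at 959, 1282 and 1196 in withdrawal cultures, against 226, 279.5 and 266 in maintained cultures (2.08, adjusted p = 2.75e-06). Rptor, which encodes the mTORC1 subunit raptor, stood at 456, 394 and 411 in withdrawal cultures, against 311, 291 and 264 in maintained cultures (0.52, adjusted p = 0.0148). Tfeb was thus lower, and Rragd and Rptor higher, on each withdrawal array than on any maintained array, and Tfe3 and Mitf were not called in any comparison.

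On return of the factors Rragd stood at 838, 937 and 614 at 2 h, 707, 629 and 806 at 4 h and 438, 550.4 and 405 at 8 h. It was called lower than in withdrawal cultures at 4 h (-0.67, adjusted p = 0.0462, and 0.0824 without the third withdrawal array) and at 8 h (-1.27, adjusted p = 0.000997), and lower at 8 h than at 2 h (-0.75, adjusted p = 0.0321). At 8 h it was still called higher than in maintained cultures (0.81, adjusted p = 0.0452). Rragc, another Rag GTPase, was called at 4 h, at 515, 637 and 670.3, against 409, 329 and 423 in withdrawal cultures (0.63, adjusted p = 0.0294). Thus 2 of the 16 were called at 4 h against withdrawal (12.5%, against 2.64% of all genes) and 1 in each comparison of 8 h (6.25%). Of all genes 2.39% were called at 8 h against withdrawal, 0.482% against maintained cultures and 1.85% against 2 h.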

How the data were processed

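RNA was measured on 15 Affymetrix arrays, 3 in each of 5 groups given by the labels. Per the labels, the authors computed MAS5 signal; the deposited values are thus linear intensity, given for 45101 probe sets. The sources used here do not give the MAS5 version, scaling target or genome build. Symbols came from the platform annotation: 34958 probe sets carried 1 symbol, 932 several and 9211 none, and 64 controls were left out. RefSeq's table held 34741 of the symbols and changed 0.

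Signal plus 16 was taken to log2, the dimmest 40% of probe sets (signal under about 30.5) were left out, and 27022 remained. The probe set of highest mean stood for its gene, which gave 13083 genes, 5804 of them with several probe sets. Means of 5 groups were fitted with limma 3.58.1 in R 4.3.3 (eBayes with a variance trend, 10 residual degrees of freedom), with 6 two-sided comparisons and Benjamini and Hochberg adjustment over all genes of each. The procedure was first tested on simulated data. Calls over all probe sets of the listed genes were adjusted over those of the 27022 probe sets that carried a single symbol.

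Genes were described in full when called in any comparison or when largest on withdrawal in their role group; the others are given by value or range. Further pathway genes are named where called with all arrays kept. Trimmed means leave out 2% of values at each end. The genes near a call at 8 h against maintained cultures were chosen after their values were seen. The 40 genes and all lists were chosen with earlier results of these data known. Promoter windows are RefSeq's for GRCm38.p6, searched for exact letters on both strands; 7 of the 40 genes had none. Alternatives changed the constant, the filter, the scaling, the probe set rule, the variance model and the arrays used.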

Additional observations from a re-analysis of the deposited data

How the results depend on the processing

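Counts of called genes among the 40 were recomputed under 26 alternatives, and the 11 differences for which a gene was described in full kept their sign in each. Other differences of the same genes were not all so stable: at 2 h against withdrawal 16 of the 40 turned sign without the third withdrawal array. The sign of the difference held throughout for 23 of the 40 genes on withdrawal, for 14, 19 and 21 at 2, 4 and 8 h against withdrawal, for 30 at 8 h against maintained cultures and for 25 at 8 h against 2 h. For withdrawal against maintained cultures the count of 2 was 0 in a fit on those groups alone (2.39% of all genes called). It was 6 with array weights (17.6%), 3 after quantile normalization (7.81%) and 3 with probe sets averaged (7.49%). The last 3 were Gaa, Uvrag and Map1lc3b, without Pink1. With single arrays left out the count was 0 to 4 (3.95% to 8.78%). At 2 h against withdrawal the count was 0 in each alternative (0.0382% to 0.512% of all genes). At 4 h against withdrawal the count of 1 was 0 after quantile normalization (3.11% of all genes) and in a fit on those groups alone (0.0994%). It was 2 with probe sets averaged (2.38%), 5 with array weights (12.3%) and 0 to 2 with single arrays left out (0.428% to 4.74%). At 8 h against withdrawal the count of 0 was 1 with a constant of 64 (2.67% of all genes), with the dimmest 60% left out (3.4%) and after quantile normalization (3.13%). It was 4 with array weights (9.11%) and 0 to 2 with single arrays left out (0.764% to 2.74%). At 8 h against maintained cultures the count of 0 was 1 after quantile normalization (0.581% of all genes) and 10 with array weights (9.78%), all higher. It was 0 to 3 with single arrays left out (0.0994% to 2.11%). At 8 h against 2 h the count of 1 was 2 after quantile normalization (1.85% of all genes) and in a fit on those groups alone (3.81%). It was 3 with array weights (6.91%) and 0 to 2 with single arrays left out (0.466% to 3.29%). With probe sets averaged it was 1 (1.87%), but the gene called was Lamp2 in place of Tpp1. The cause of these shifts was not tested.

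Shifting the arrays to one median moved the median of all genes from 0.06 to -0.08 at 8 h against maintained cultures and from 0.03 to -0.09 at 8 h against 2 h. It also changed the split of calls over all genes, to 265 higher of 911 on withdrawal, beside 551 of 1052, to 332 of 371 at 4 h against withdrawal, beside 227 of 346, to 18 of 83 at 8 h against maintained cultures, beside 36 of 63, and to 74 of 136 at 8 h against 2 h, beside 193 of 242. Signs turned for 1 to 8 of the 40 genes.

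Replicate numbers did not pair the arrays: 7 of 30 same-numbered pairs had a correlation of deviations over 0.1, and 5 of 15 arrays correlated best with their own number. With the replicate number as a block the count was 3 on withdrawal (Ctsa, Uvrag and Pink1), against 8.57% of all genes. As without the block, it was 1 at 4 h against withdrawal (2.84%) and 1 at 8 h against 2 h (1.66%). It was 0 in the other 3 comparisons (0.122% to 2.42%). Signal near the filter limits Ctsh.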
